A study of Homo sapiens with 8 samples.

Results

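GDF15 and 8 further genes that p53 can switch on, namely CDKN1A, SESN1, SESN2, SESN3, TP53INP1, TP53I3, MDM2 and BTG2, were followed on 8 Affymetrix arrays of sublines of KYSE180 and KYSE30, established human esophageal squamous cell carcinoma lines. Members were identified by the probe sets whose platform annotation names 1 of these symbols and no other gene. This gave 28 probe sets for 8 of the 9 genes, out of 41091 probe sets naming 1 gene and 19775 genes in all. BTG2 had no such probe set and was not analysed here. Each gene was represented by the probe set with the highest mean over the 8 arrays, the single measured value that entered the choice of probe set. The genes were selected on earlier results of these arrays, in which most of them differed between 30D and 30U, so their tests in that comparison describe the arrays and are not independent evidence.

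The 4 groups were 180D, 180U, 30D and 30U, with 2 arrays each. D sublines consist of cells that went through a transwell membrane in each of 4 rounds of selection, and U sublines of cells that stayed above it. The labels call the D cells the more motile ones. All sublines were then grown for 2 passages to about 80% confluence before RNA was taken, so the arrays show cells in culture after selection and not cells in passage through a membrane. Both lines were started from 2 parental populations each, and each gave 1 D and 1 U subline. No agent or genetic change was added in any group. In bulk RNA, fewer cells with a transcript and less of it per cell cannot be told apart.

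The p53 protein is a transcription factor that is stabilised by DNA damage and other stresses and then binds its target genes, which halt the cell cycle, repair DNA, adjust metabolism or start cell death. MDM2 is both a target of p53 and the ubiquitin ligase that marks p53 for breakdown, which closes a feedback loop. Several of the targets also answer to other factors, such as ATF4 for GDF15 and SESN2 and FOXO factors for SESN3. TP63 had no probe set naming it alone and was not analysed here.

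Array medians lay between 5.02 and 5.04 on the log2 scale of the deposited values, on which 1 unit is a 2-fold difference. Of the array pairs, those of the same group correlated at 0.997 to 0.998 over the tested genes. In its control probes 1 array, 180D replicate 1, differed from the other 7: the 3′ signal of ACTB exceeded the 5′ signal by 1.92 there and by 1.06 to 1.42 elsewhere, and 18S RNA read 11.47 against 12.35 to 12.54. The filter value was 4.46, the 40th percentile of all probe sets, and stands in for background here. Of 10 squamous markers 9 were measured, and all 9 lay above it in both KYSE180 groups. In KYSE30 the basal keratins were low, with KRT5 at 4.84 in 30D and 4.63 in 30U and KRT14 below the filter value at 4.13 and 3.54. PKP1 was as dim as KRT5 (4.61 in 30D, 4.90 in 30U). The others lay further above the filter value, such as SFN (12.84 in 30D, 12.60 in 30U), S100A2 (10.83 and 10.25 in the same order) and DSG3 (7.11 and 7.17). SOX2 was among them but was lower in 30D, at 7.86, than in 30U, at 9.80. The summed linear level of the squamous list was 40114 to 42315 on the 180D arrays, 44717 to 46250 on the 180U arrays, 9765 to 9963 on the 30D arrays and 8751 to 8805 on the 30U arrays. Of 10 fibroblast markers, COL1A2, COL3A1, PDGFRA, LUM, POSTN and FAP lay below it in every group. The summed linear level of the fibroblast list was 396 to 450 on the 180D arrays and 331 to 340 on the 180U arrays, led by COL1A1 (7.84 in 180D, 7.25 in 180U), and 269 to 281 on the 30D arrays and 301 to 306 on the 30U arrays. Sums of the immune, endothelial, neural and glandular lists stayed between 195 and 261 on every array, and their part in the results was not tested. Of their measured markers, 4 of 9 immune and 5 of 8 in each other list averaged above the filter value, such as CD79A at 6.32. A level above the filter value is therefore not proof of expression. Bounds measured from it hold only as far as it stands for background.

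In KYSE30, 6 of the 8 measured members were lower in 30D than in 30U, led by GDF15, and TP53I3 was higher. SESN2 did not pass the test. SESN3 is counted among the 6, but was tested only because its level is high in KYSE180. The count of 7 in 8 compares with 16.5% of all 14180 genes tested, 8.12% lower and 8.42% higher, and since the members were chosen with this contrast in view nothing is read from it. Their median change was -0.84 on the log2 scale, beside 0.01 for all genes. In KYSE180, 2 of the 8 passed: GDF15 was higher in 180D than in 180U and SESN3 was lower, against 3.75% of all genes, 2.55% higher and 1.21% lower. The members' median change there was 0.12, beside 0.02 for all genes. The members were chosen with earlier results of these arrays known, so nothing is read from the KYSE180 count either. All tests are limma fits over the 4 groups with Benjamini-Hochberg adjustment over all genes tested, two-sided, at 0.05, and errors are standard errors of the fit.

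**Figure D1:**
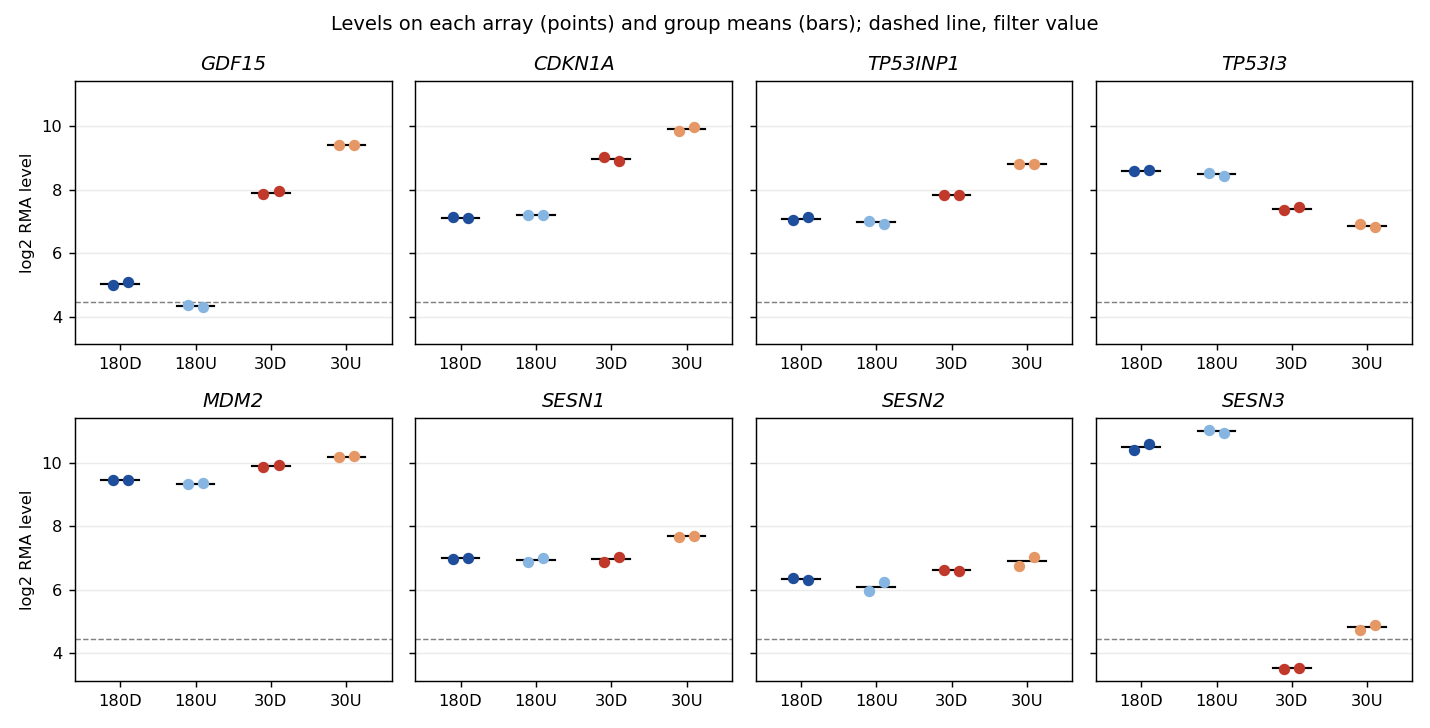
Log2 RMA level (y axis) of the 8 measured members on each array, by group (x axis), with the group mean as a bar and the filter value as a dashed line. GDF15, CDKN1A and TP53INP1 are lower in both KYSE180 groups than in either KYSE30 group, 30D lies below 30U in every panel except TP53I3, and SESN3 exceeds 10 in KYSE180 only.

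GDF15 encodes a secreted cytokine of the TGF-beta superfamily that is released by stressed cells and acts on the brainstem receptor GFRAL with its co-receptor RET. It read 5.0 and 5.09 on the 180D arrays, against 4.36 and 4.30 on the 180U arrays, where it lay below the filter value. In KYSE30 it read 7.85 and 7.95 on the 30D arrays, against 9.42 and 9.42 on the 30U arrays. The D and U arrays did not overlap in either line, and they differed in opposite directions. In KYSE180 the change was 0.71 ± 0.06 (limma adjusted p = 0.00154), at least 1.50-fold when measured from the filter value. The 180D mean of 5.04 was below that of the immune marker CD79A in the same group (6.39), so this bound is uncertain. In KYSE30 it was -1.52 ± 0.06 (limma adjusted p = 3.82e-05), a 2.86-fold lower level and the 16th largest fall of all genes tested. Without the array of 180D replicate 1, the change in KYSE180 was 0.76 (limma adjusted p = 0.00949).

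A second GDF15 probe set above the filter, 229868_s_at, was dim in all groups, between 4.27 and 4.77, and changed by 0.23 in KYSE180 and -0.18 in KYSE30 without passing the test (limma adjusted p = 0.345 and 0.348 among probe sets). With the mean of both sets GDF15 changed by 0.47 in KYSE180 and -0.85 in KYSE30 and still passed in both (limma adjusted p = 0.0136 and 0.000501). The third, 221576_at, lay below the filter value on average, at 4.05. The probe set that carries the GDF15 result, 221577_x_at, has the suffix Affymetrix gives to sets whose probes can also match other transcripts. RET read 5.32 in 180D and 4.99 in 180U, and 5.24 in 30D and 5.22 in 30U, and passed the test in neither line (limma adjusted p = 0.145 and 0.929).

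The GDF15 promoter is shown because, among the probe sets used, this gene had the largest fall in KYSE30 and the largest rise in KYSE180. The 250 bases before its start are at chr19:18385908-18386157 on the plus strand of GRCh38.p14, from RefSeq. Capitals mark 2 SP1 boxes (GGGCGG on either strand) and a TATA box (TATAAA) at 29 to 24 bases before the start.
GDF15 promoter: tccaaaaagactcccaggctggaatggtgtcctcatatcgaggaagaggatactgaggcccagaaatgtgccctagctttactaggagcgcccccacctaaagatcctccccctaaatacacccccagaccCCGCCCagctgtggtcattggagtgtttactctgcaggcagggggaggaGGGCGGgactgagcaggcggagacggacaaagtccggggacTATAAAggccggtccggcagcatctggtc
Of 35116 promoter windows of this length, 42.6% held an SP1 box and 10.7% the TATAAA letters. The window also held a CCAAT box (32% of windows). It held no AP-1 site (TGANTCA, 6.57% of windows), no ATF4 composite element (TGATGNAAN, 3.13%) and no full match of the p53 half-site decamer (5.57%), all searched on both strands. A match in letters is a description and not a bound site, and p53 elements of these genes can lie outside such a window.

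CDKN1A encodes p21, the inhibitor of cyclin-dependent kinases through which p53 arrests the cell cycle. Its single probe set read 7.13 and 7.09 on the 180D arrays and 7.19 and 7.19 on the 180U arrays. On the 30D arrays it read 9.02 and 8.90, against 9.85 and 9.97 on the 30U arrays. The 4 KYSE180 arrays lay close together, while both 30D arrays were clearly below both 30U arrays. The change was -0.08 ± 0.07 in KYSE180 (limma adjusted p = 0.577) and -0.95 ± 0.07 in KYSE30 (limma adjusted p = 0.000299), a 1.93-fold lower level. The window before its start, shown because its make-up differs from that of GDF15, is at chr6:36678464-36678713 on the plus strand, with its 4 SP1 boxes in capitals, the last 2 of which share a base.
CDKN1A promoter: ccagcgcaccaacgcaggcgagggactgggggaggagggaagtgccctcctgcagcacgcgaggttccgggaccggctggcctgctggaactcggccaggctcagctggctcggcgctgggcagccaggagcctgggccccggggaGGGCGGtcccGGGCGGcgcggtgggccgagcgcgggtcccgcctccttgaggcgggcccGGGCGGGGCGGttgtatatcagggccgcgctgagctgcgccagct
None of the other 5 motifs was found in it.

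TP53INP1 encodes a stress-induced nuclear protein that enhances p53 phosphorylation and also takes part in autophagy. It read 7.04 and 7.13 on the 180D arrays and 7.01 and 6.92 on the 180U arrays. In KYSE30 it read 7.84 on both 30D arrays, against 8.80 on both 30U arrays. In KYSE30 the gap between the groups was thus far wider than that between arrays of a group. The change was 0.12 ± 0.06 in KYSE180 (limma adjusted p = 0.296) and -0.96 ± 0.06 in KYSE30 (limma adjusted p = 0.000136), a 1.95-fold lower level. A dimmer probe set, 244721_at, read between 4.61 and 4.79 on all arrays and changed by 0.05 in KYSE180 and -0.01 in KYSE30, passing the test in neither, and with the mean of both sets the KYSE30 change was -0.49 (limma adjusted p = 0.00115).

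TP53I3, also called PIG3, encodes a quinone oxidoreductase linked to reactive oxygen species in p53-dependent cell death. It was the exception among the members in KYSE30. It read 8.57 and 8.61 on the 180D arrays and 8.51 and 8.44 on the 180U arrays. On the 30D arrays it read 7.36 and 7.44, against 6.92 and 6.81 on the 30U arrays. The D arrays were the higher ones in both lines, with a wider gap in KYSE30. The change was 0.11 ± 0.06 in KYSE180 (limma adjusted p = 0.39) and 0.54 ± 0.06 in KYSE30 (limma adjusted p = 0.00257), a 1.45-fold higher level. Its promoter window is shown because the gene moved against the others and because none of the 6 motifs was found there, at chr2:24084835-24085084 on the minus strand.
TP53I3 promoter: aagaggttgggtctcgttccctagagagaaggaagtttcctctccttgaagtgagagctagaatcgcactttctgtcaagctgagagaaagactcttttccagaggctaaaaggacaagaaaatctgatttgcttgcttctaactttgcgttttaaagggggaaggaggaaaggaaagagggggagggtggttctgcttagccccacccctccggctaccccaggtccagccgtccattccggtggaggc
The SESN3 window likewise held none of the 6.

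MDM2 read 9.46 and 9.47 on the 180D arrays and 9.32 and 9.36 on the 180U arrays, and 9.87 and 9.92 on the 30D arrays, against 10.17 and 10.22 on the 30U arrays. The groups did not overlap in either line, but the gaps were small. The change was 0.13 ± 0.05 in KYSE180 (limma adjusted p = 0.247) and -0.30 ± 0.05 in KYSE30 (limma adjusted p = 0.00978), a 1.23-fold lower level. The KYSE30 call did not hold when 30D replicate 1 (limma adjusted p = 0.0772), 30D replicate 2 (0.0514) or 30U replicate 2 (0.0796) was left out, nor for the mean of its probe sets (-0.17, limma adjusted p = 0.297). Of the 4 other MDM2 probe sets above the filter, none passed in either line: 217373_x_at changed by -0.10 in KYSE180 and -0.30 in KYSE30, 225160_x_at by -0.65 and -0.23 in the same order, and 217542_at and 244616_x_at by at most 0.10 in size. A set that averaged just below the filter value, 238733_at, read 4.48 and 4.43 on the 30D arrays and 5.25 and 5.31 on the 30U arrays. The probe set 225160_x_at read 6.07 on 180D replicate 1, the array with the outlying controls, and 7.45 on 180D replicate 2.

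MDM2 is transcribed from a first promoter and from a second, downstream one that is known for its p53 response, and both are among its 4 starts in the RefSeq table. The window before start 4 is shown because it was the one member region with adjoining p53 half-sites, at chr12:68808774-68809023 on the plus strand, with the pair in capitals. The pair consists of 2 decamers of 10 bases with no spacer and up to 1 mismatch in each, a looser search chosen after the windows had been seen.
MDM2 second promoter: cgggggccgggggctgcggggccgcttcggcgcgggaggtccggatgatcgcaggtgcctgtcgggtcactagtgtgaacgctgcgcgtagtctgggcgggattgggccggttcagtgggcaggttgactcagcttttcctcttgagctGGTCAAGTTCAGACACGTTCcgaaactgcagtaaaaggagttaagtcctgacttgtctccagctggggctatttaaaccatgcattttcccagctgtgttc
Such a pair was found in 49 of the 35116 windows (0.14%), 2 of them the overlapping windows of MDM2 starts 3 and 4, where it is the same stretch. The strict decamer was found once among the members, in the window of SESN1 start 3, and is shown with 10 bases on each side, at chr6:109009018-109009047 on the minus strand.
SESN1 element: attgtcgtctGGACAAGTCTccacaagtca
The arrays do not separate transcripts by their start, so no level can be tied to either element.

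The sestrins restrain the growth kinase complex TORC1 and protect against oxidants, and SESN1 and SESN2 were first described as stress-induced p53 targets. SESN1 read 6.99 and 7.0 on the 180D arrays and 6.87 and 7.01 on the 180U arrays, which overlapped. On the 30D arrays it read 6.88 and 7.04, against 7.67 and 7.70 on the 30U arrays, so the 30U arrays alone were high. The change was 0.06 ± 0.07 in KYSE180 (limma adjusted p = 0.744) and -0.72 ± 0.07 in KYSE30 (limma adjusted p = 0.00149), a 1.65-fold lower level.

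SESN2, the sestrin that senses leucine, read 6.38 and 6.31 on the 180D arrays and 5.97 and 6.25 on the 180U arrays. In KYSE30 it read 6.64 and 6.61 on the 30D arrays, against 6.75 and 7.03 on the 30U arrays. The arrays of a U group lay further apart than for most members. The change was 0.24 ± 0.12 in KYSE180 (limma adjusted p = 0.319) and -0.27 ± 0.12 in KYSE30 (limma adjusted p = 0.163). Its second probe set changed by 0.12 in KYSE180 and -0.41 in KYSE30 (limma adjusted p = 0.615 and 0.0531 among probe sets).

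SESN3, the sestrin known as a FOXO target, was the member with the widest gap between the lines. Its brightest probe set, 235683_at, read 10.41 and 10.59 on the 180D arrays, against 11.04 and 10.94 on the 180U arrays. On the 30D arrays it read 3.51 and 3.54, below the filter value, against 4.74 and 4.90 on the 30U arrays, just above it. The change was -0.49 ± 0.08 in KYSE180 (limma adjusted p = 0.0273), a 1.4-fold lower level. In KYSE30 the fitted change was -1.29 ± 0.08 (limma adjusted p = 0.000221), but measured from the filter value the level was only shown to be at least 1.29-fold lower. This set was tested in KYSE30 only because it is high in KYSE180, so no weight is placed on its KYSE30 call. The KYSE180 call did not hold without 30D replicate 1 or replicate 2 (limma adjusted p = 0.0589 each), 180U replicate 1 (0.118), 180U replicate 2 (0.0834) or 180D replicate 1 (0.115), nor in the fit of the KYSE180 arrays alone (0.0864).

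The 5 SESN3 probe sets above the filter did not move alike. In KYSE180, 235684_s_at changed by -0.63 (limma adjusted p = 0.0249 among probe sets), close to the set used, while 225123_at changed by -0.02 (0.939). In KYSE30, 225123_at read 3.79 and 3.6 on the 30D arrays and 5.94 and 5.91 on the 30U arrays, a fitted change of -2.23 (limma adjusted p = 9.59e-05), which is a fall of at least 1.47 when measured from the filter value. The other 3 sets lay below the filter value in both KYSE30 groups, so they were tested only because they are high in KYSE180, and no change in KYSE30 is given for them.

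**Figure D2:**
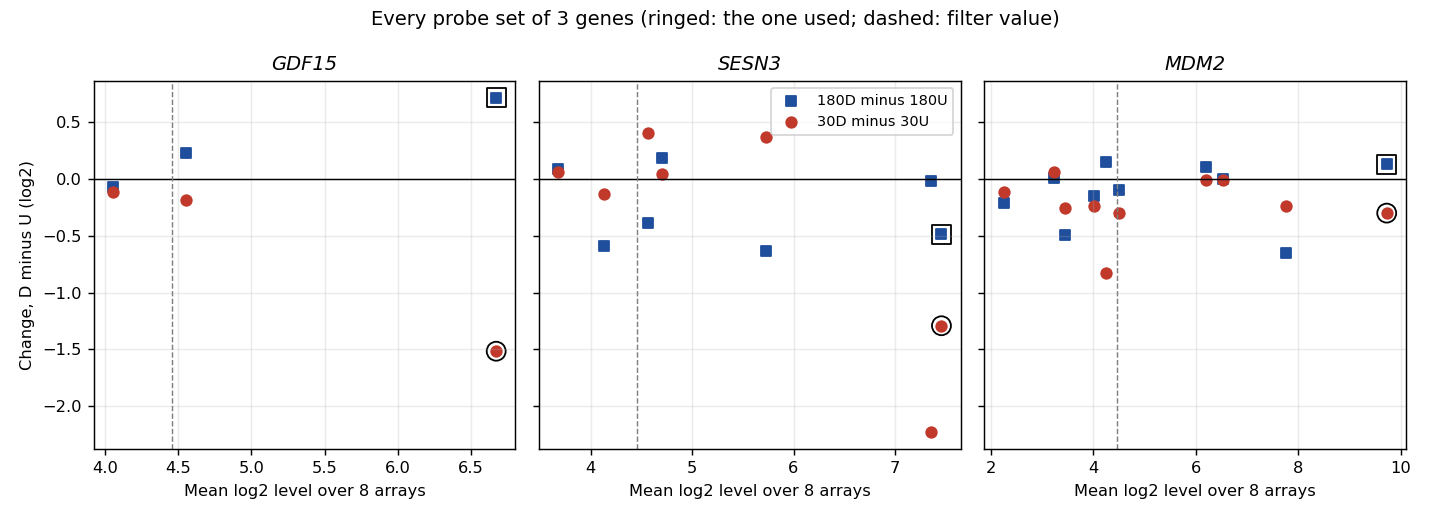
Change between D and U (y axis, log2) against the mean level over the 8 arrays (x axis, log2) for every probe set of GDF15, SESN3 and MDM2, blue squares for 180D minus 180U and red circles for 30D minus 30U, with the probe set used ringed and the filter value dashed. The GDF15 changes of 0.71 and -1.52 come from 1 probe set. It is bright in KYSE30 only, and averaged 5.04 in 180D and 4.33, below the filter value, in 180U. The 30D level, and for 3 of the 5 SESN3 sets above the filter the 30U level too, lay below the filter value, so the red SESN3 points are fitted differences and not measured changes.

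The difference between the change in KYSE180 and that in KYSE30 was tested for each member. It passed for 7 of 8, 6 with a positive and 1 with a negative difference, against 12.2% of all genes, 6.94% positive and 5.21% negative. This contrast holds the 30D and 30U arrays on which the genes had been chosen, so the count is not independent of that choice. GDF15 had a fitted difference of 2.23 ± 0.09 (limma adjusted p = 2.84e-05), which is at least 2.10 with the 180U level raised to the filter value, and 1.32 for the mean of its probe sets. TP53INP1 (1.09 ± 0.08), CDKN1A (0.87 ± 0.09), SESN1 (0.78 ± 0.11) and MDM2 (0.43 ± 0.07) followed, with limma adjusted p from 0.000498 to 0.0129. GDF15 was the one gene of these 5 that passed in both lines, in opposite directions, while the others passed in KYSE30 alone. SESN2 had a difference of 0.51 ± 0.16 that did not pass (limma adjusted p = 0.0918).

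TP53I3 had the negative difference, -0.42 ± 0.09 (limma adjusted p = 0.0258). It did not hold with parental population as a block (0.0699) or without 30U replicate 1 or 2 (0.0508 and 0.099), 30D replicate 1 or 2 (0.0598 and 0.099), 180U replicate 1 (0.0656) or 180D replicate 1 (0.0634). The MDM2 difference did not hold without 30U replicate 2 or 30D replicate 1. For the mean of its probe sets it was only 0.07 (limma adjusted p = 0.806). For SESN3 the fitted difference of 0.80 ± 0.12 (limma adjusted p = 0.00751) rests on a 30D level below the filter value, and was -0.12 with that level raised to the filter value. No direction is therefore given for it.

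**Figure D3:**
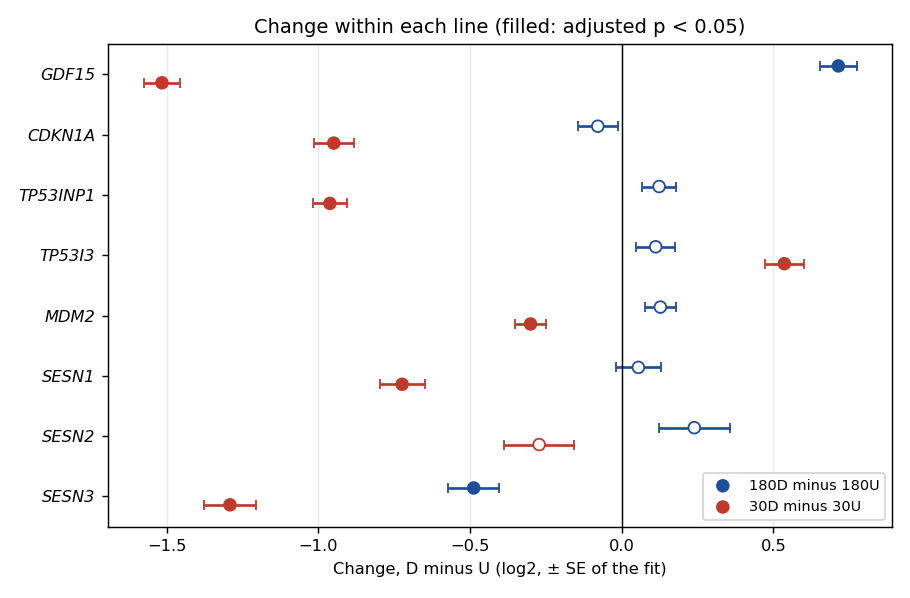
Change between D and U (x axis, log2, with the standard error of the fit) of each member, blue for 180D minus 180U and red for 30D minus 30U, filled where the limma adjusted p was below 0.05. The filled red points lie between -1.52 and -0.30 except TP53I3 at 0.54, and the 2 filled blue points are GDF15 at 0.71 and SESN3 at -0.49.

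Between the lines, all 8 members differed, 2 higher and 6 lower in KYSE180 than in KYSE30, where 71.4% of all genes differed, 38.7% higher and 32.7% lower. The 8 of 8 thus stands against a background in which most genes passed. SESN3 passed the filter through its KYSE180 level alone, so its difference was fixed by the filter. By its brightest probe set it was 72.0-fold higher in 180U than in 30U and at least 66.0-fold higher in 180D than in 30D. The fitted difference between the lines was 6.57 on the log2 scale for that set and 4.45 for the mean of its probe sets. Measured from the filter value, the other SESN3 sets above the filter gave 1.70 to 4.72. TP53I3 (1.4 ± 0.04) was also higher in KYSE180. GDF15 was lower by at least 3.91 on the log2 scale, measured from the filter value in 180U, and by 2.11 for the mean of its probe sets. CDKN1A (-2.28 ± 0.05), TP53INP1 (-1.29 ± 0.04), MDM2 (-0.64 ± 0.04), SESN2 (-0.53 ± 0.08) and SESN1 (-0.36 ± 0.05) were lower too, with limma adjusted p of 0.000614 or less for each of the 8. Between the U sublines, 180U against 30U, 8 of 8 passed (64.5% of all genes), with GDF15 at least 31.1-fold lower in 180U. Between the D sublines, 180D against 30D, 6 of 8 passed (64.2% of all genes), with GDF15 7.25-fold lower in 180D. SESN1 was 6.99 on average in 180D and 6.96 in 30D, a difference of 0.03 ± 0.07, and SESN2 was 6.34 and 6.62 in the same order (limma adjusted p = 0.741 and 0.0717).

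Across the 8 arrays the level of CDKN1A ran with that of GDF15 (Pearson r = 0.988) and MDM2 (0.985) and against that of TP53I3 (-0.999). SESN1 was the loosest partner of GDF15, with r = 0.757. These values describe 8 arrays that fall into 2 lines of very different levels and share their normalization. The 5 genes whose levels ran most like GDF15 were MFSD11, BBIP1, SPEN-AS1, SWSAP1 and STARD4, with r of 0.998 to 0.999 over the 8 arrays. STARD4, a cholesterol transfer protein, averaged 6.54 in 180D and 6.21 in 180U, and 7.74 in 30D and 8.28 in 30U. The genes most like CDKN1A were MGME1, LPIN1, DNMT1, CTC-338M12.4 and HMGN1 (r of 0.997 to 0.998), and those most like TP53I3 were KCNQ5, IFITM1, FTSJ1, MPHOSPH10 and PLAAT2 (r of 0.997 to 0.999). IFITM1, an interferon-induced membrane protein, averaged 10.08 in 180D and 9.75 in 180U, and 7.30 in 30D and 6.34 in 30U.

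A list of 51 other p53 targets, 45 of them tested, was set beside the members. In KYSE180, CCNG1, KITLG and NINJ1 rose and no gene fell, 6.67% of the list beside 3.75% of all genes. With each array centred on its median, 3 rose and 2 fell. Over the alternatives that left out no single array, 0 to 8 genes passed, 0 to 3 of them higher and 0 to 5 lower. By unadjusted limma p under 0.05, 4 were higher and 7 lower. In KYSE30, SFN (0.24 ± 0.05, limma adjusted p = 0.0218) and PLK2 (0.29 ± 0.06, limma adjusted p = 0.0189) rose. Neither rise held without any 1 KYSE30 array, and SFN did not pass with the block (limma adjusted p = 0.0553). The 2 rises and 9 falls in KYSE30 made up 24.4% of the list beside 16.5% of all genes. The list's median change was -0.02 beside 0.01 for all genes. CCNG1, cyclin G1, was the one whose changes held in both lines without any 1 of the 8 arrays: it averaged 10.39 in 180D and 9.96 in 180U (0.43 ± 0.05, limma adjusted p = 0.00506), and 10.44 in 30D and 11.07 in 30U (-0.63 ± 0.05, limma adjusted p = 0.00045). It thus differed in opposite directions in the 2 lines, with a difference between the changes of 1.06 ± 0.07 (limma adjusted p = 0.000272).

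Among the other targets, RRM2B, a ribonucleotide reductase subunit, was lower in 30D than in 30U in the fit of all arrays and with each array left out (-0.44 ± 0.06, limma adjusted p = 0.00418). TIGAR, a fructose bisphosphatase, averaged 9.05 in 30D and 9.39 in 30U (-0.34 ± 0.06, limma adjusted p = 0.00863), but missed the threshold without 30D replicate 2 or 30U replicate 2 (0.0687 and 0.0697). Fewer of the list passed in KYSE30 without any 1 array of that line, all of them lower. Such a fit leaves 1 array in a group, and fewer of all genes passed in it too. Whether the list lost more of its calls than all genes did was not tested. In KYSE180 fewer of the list passed in most fits without 1 array, and fewer of all genes passed in every such fit. With parental population as a block, 1 passed in KYSE180 and 7 in KYSE30. Between the lines, GADD45A (-2.10 ± 0.05) and PLK2 (-2.97 ± 0.04) were lower in KYSE180 and FAS (1.24 ± 0.04) higher.

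Of 25 genes that act on p53 or are related to it, none passed limma in KYSE180, beside 3.75% of all genes, and 3 higher and 2 lower had an unadjusted p under 0.05 and the median change was 0.02. In KYSE30, 1 rose and 3 fell, 16% of the list beside 16.5% of all genes: CHEK2, the checkpoint kinase that phosphorylates p53, averaged 7.94 in 30D and 8.29 in 30U (-0.35 ± 0.05, limma adjusted p = 0.00579), CREBBP and PRKDC changed by -0.30 and -0.28, and TP53RK by 0.32. Fewer than these 4 passed without any 1 KYSE30 array, as was so over all genes. PRKDC did not pass with the block (limma adjusted p = 0.0501). MDM4, the partner of MDM2 that holds p53 inactive, read 8.52 in 180D and 8.61 in 180U, and 9.49 in 30D and 9.66 in 30U, and passed in neither line (limma adjusted p = 0.482 and 0.0993). The p53 relative TP73 did not pass in either (0.213 and 0.429).

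CDKN1A belongs to the Cip/Kip family of cyclin-dependent kinase inhibitors, and its relatives were set beside it. CDKN1B, which encodes p27, averaged 9.70 in 180D and 9.62 in 180U, and 9.48 in 30D and 9.69 in 30U. Its KYSE30 change of -0.21 ± 0.05 (limma adjusted p = 0.0386) did not pass without 30D replicate 1 (0.203), 30D replicate 2 (0.122), 30U replicate 1 (0.142) or 30U replicate 2 (0.189), nor with the block (0.0893). CDKN2A, which encodes p16 and p14ARF, passed in neither line and was lower in KYSE180 than in KYSE30 (-2.93 ± 0.09). CDKN2B, its neighbour, averaged 2.50 in 180D and 2.60 in 180U, below the filter value, and 8.84 in 30D and 9.01 in 30U.

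Of 13 cyclins, kinases and other partners of p21, 1 rose and 2 fell in KYSE30, 23.1% of the list beside 16.5% of all genes. CCND1, cyclin D1, averaged 10.70 in 30D and 10.30 in 30U (0.40 ± 0.05, limma adjusted p = 0.00332). SKP2, part of the ligase that marks p27 and p21 for breakdown, averaged 10.37 in 30D and 10.84 in 30U (-0.47 ± 0.06, limma adjusted p = 0.00295). Both passed with each array left out, whereas PCNA, the replication clamp (-0.33), dropped out without any 1 KYSE30 array. In KYSE180 only CDK6 passed, 7.69% of the list beside 3.75% (0.37 ± 0.06, limma adjusted p = 0.0195), but with any of 180D replicate 1, 180U replicate 1, 180U replicate 2, 30D replicate 1 or 30D replicate 2 left out it did not (0.0512 to 0.0854), nor with the block (0.0585).

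Of 27 cell cycle genes that the DREAM complex represses downstream of p53 and p21, AURKA, KIF20A and UBE2C were higher in 180D than in 180U, by 0.28 to 0.30, 11.1% of the list beside 3.75% of all genes. None of these 3 passed with the block. Fewer than the 3 passed in each fit without 1 array, as was so over all genes. In KYSE30, 1 rose and 7 fell, 29.6% beside 16.5% of all genes, which became 4 with the block. Fewer passed without any 1 KYSE30 array, again as over all genes. MCM5, a subunit of the replicative helicase (-0.38 ± 0.06, limma adjusted p = 0.00622), kept its call with each array left out. The list's median change was 0.09 in KYSE180 and -0.03 in KYSE30.

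The ATF4 and stress response list was included because ATF4 and CHOP can also raise GDF15 and SESN2. ATF3, a stress-induced transcription factor, averaged 6.86 in 180D and 6.31 in 180U (0.55 ± 0.07, limma adjusted p = 0.00584), and 7.77 in 30D and 8.61 in 30U (-0.84 ± 0.07, limma adjusted p = 0.000476). Like GDF15 and CCNG1, it was higher in D in KYSE180 and lower in D in KYSE30, with a difference between the changes of 1.39 ± 0.09 (limma adjusted p = 0.000297), and it passed with each of the 8 arrays left out. ATF4 itself changed by 0.06 ± 0.06 in KYSE180 (limma adjusted p = 0.648) and -0.23 ± 0.06 in KYSE30 (limma adjusted p = 0.0312). The KYSE30 value did not pass without 30D replicate 1, 30D replicate 2, 30U replicate 1 or 30U replicate 2 (0.148, 0.139, 0.129 and 0.157), nor with the block (0.0547). DDIT3, which encodes CHOP, did not pass in either line (limma adjusted p = 0.327 and 0.0973).

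Of the 26 stress genes tested, 3 rose in KYSE180 (ATF3, DDIT4 and CEBPB) and none fell, 11.5% of the list beside 3.75% of all genes. CEBPB did not pass with the block (0.109). Fewer than the 3 passed in each fit without 1 array, as was so over all genes. In KYSE30, 3 rose and 7 fell, 38.5% of the list beside 16.5% of all genes, with a median change of -0.02. SLC7A11, the cystine transporter (-0.86 ± 0.08, limma adjusted p = 0.00106), and PSAT1, an enzyme of serine synthesis (-0.51 ± 0.06, limma adjusted p = 0.00318), fell with each array left out. Fewer than the 10 passed in KYSE30 without any 1 array of that line, all of them lower. Fewer of all genes passed in these fits too.

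FOXO factors, which regulate SESN3 and CDKN1A among others, and their targets held 18 tested genes. In KYSE30, 1 of them was higher and 10 lower, 61.1% beside 16.5% of all genes, with a median change of -0.24. The 11 became 5 with the block. Fewer than the 11 also passed without any 1 KYSE30 array. Such fits leave 1 array in a group, and fewer of all genes passed in them too. FOXO1 averaged 6.59 in 180D and 6.77 in 180U, and 7.67 in 30D and 8.11 in 30U (-0.43 ± 0.07, limma adjusted p = 0.0062 in KYSE30, and 0.051 without 30U replicate 2). FOXO3 changed by -0.24 ± 0.05 in KYSE30 (limma adjusted p = 0.0223), and by the same test gave 0.136, 0.0985, 0.12 and 0.116 without 30D replicate 1, 30D replicate 2, 30U replicate 1 and 30U replicate 2, and 0.0664 with the block. In KYSE180, TRIB1 fell (-0.51 ± 0.07, limma adjusted p = 0.0109), which did not hold without 180U replicate 2 (-0.48). CITED2 rose from a dim 4.79 in 180U to 5.51 in 180D (0.72 ± 0.13, limma adjusted p = 0.033, and 0.0693 with the block). Its call was lost in most fits without 1 array, where the change ranged from 0.49 to 0.95. TRIB1 and CITED2 made up 11.1% of the list beside 3.75% of all genes, and the list's median change was 0.07.

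GDF15 was set beside 19 tested genes of a list of TGF-beta superfamily ligands and the GDF15 receptor. In KYSE30, TGFB2 (-0.81 ± 0.09), BMP7 (-0.80 ± 0.09) and BMP5 (-0.72 ± 0.07) fell and BMP4 (0.38 ± 0.05) rose, all with each array left out. BMP7 averaged 9.48 in 180D and 9.47 in 180U, and 5.54 in 30D and 6.33 in 30U, whereas TGFB2 and BMP5 lay below the filter value in KYSE180. BMP2 rose in both lines, by 0.41 ± 0.07 in KYSE180 and 0.44 ± 0.07 in KYSE30 (limma adjusted p = 0.028 and 0.00774). It missed the threshold in KYSE180 without 180D replicate 1, 180U replicate 1, 180U replicate 2, 30D replicate 1 or 30D replicate 2 (0.0569 to 0.122) and with the block (0.0748), and in KYSE30 without 30D replicate 2 or 30U replicate 1 (0.058 and 0.0567). No other gene of this list passed in either line, so the shares were 5.26% in KYSE180 and 26.3% in KYSE30, beside 3.75% and 16.5% of all genes.

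In KYSE180, 6.67% of a sestrin and TORC1 list, 0 of a BTG and TOB list and 4.76% of an autophagy list passed, beside 3.75% of all genes. In KYSE30 the shares were 3.33%, 14.3% and 9.52% in the same order, beside 16.5%. Of 30 genes of the sestrin and TORC1 list, DDIT4, the TORC1 inhibitor REDD1, rose in KYSE180 (0.51 ± 0.07, limma adjusted p = 0.00984, and 0.0566 without 180U replicate 2). PRKAA2 and PRKAA1, the catalytic subunits of AMP-activated kinase, passed in 1 line each. PRKAA2 fell in KYSE180 (-0.41 ± 0.06, limma adjusted p = 0.0134, and 0.0666 and 0.0661 without 180U replicate 1 and 180U replicate 2, and 0.061 with the block). PRKAA1 fell in KYSE30 (-0.40 ± 0.08, limma adjusted p = 0.0138, and 0.0818, 0.0671 and 0.0664 without 30D replicate 1, 30D replicate 2 and 30U replicate 1).

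Of 14 BTG, TOB and CCR4-NOT genes, the antiproliferative TOB1 was lower in 30D than in 30U with each array left out (-0.47 ± 0.05, limma adjusted p = 0.00207). BTG3 rose there (0.31 ± 0.05), without any 1 KYSE30 array it did not pass, and none passed limma in KYSE180, where 1 higher and 0 lower had an unadjusted p under 0.05. Of 21 autophagy genes, WIPI1, which binds phosphoinositides on forming autophagosomes, averaged 8.63 in 180D and 8.0 in 180U (0.63 ± 0.08, limma adjusted p = 0.00766, and 0.06 without 180U replicate 2). In KYSE30, 2 rose and none fell, which became 1 with the block. Fewer than these 2 passed in each fit without 1 array, and over all genes fewer passed without any 1 KYSE30 array.

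**Figure D4:**
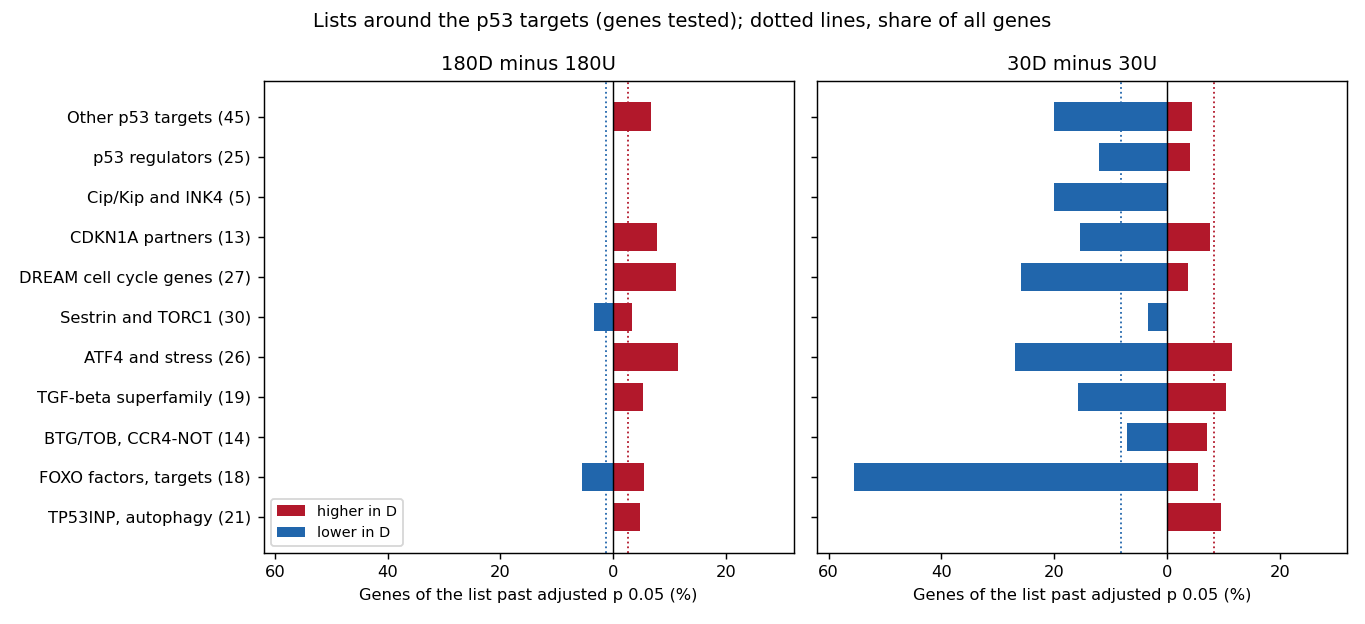
Percent of the tested genes of each list that passed the limma test (x axis), red to the right for higher and blue to the left for lower in D, for 180D minus 180U and 30D minus 30U, with the share of all genes as dotted lines and the number tested in brackets. In KYSE180 the widest bar is that of the ATF4 and stress list, 11.5% higher, and in KYSE30 the FOXO list reaches furthest, with 10 of 18 lower.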

How the data were processed

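Levels were measured on 8 arrays of the 4 groups. The deposited values are log2 expression values that the authors made with RMA, per the submitters' processing notes; the sources used here name no version. RMA makes array distributions alike, so that a shift in RNA content common to all genes is lost, and compresses low signals, so folds of dim genes are understated. Probe sets were named from the platform annotation and updated by Entrez ID through RefSeq (41037 of 41091 matched). Genes whose brightest probe set averaged at least 4.46 (40th percentile) were tested, 14180 of 19775. Where a compared group lay below 4.46, the fold is a lower bound from it, which holds only as far as 4.46 stands for background.

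Tests used limma 3.58.1 in R 4.3.3 (lmFit and eBayes on 4 group means, all groups sharing 1 estimate of the spread; p-values reflect the spread between sublines selected in parallel). On simulated data with 14180 genes, 70, 59 and 71 of them were changed by 0.5, 1 and 2 (log2). Of these, 64.3%, 94.9% and 100% were recovered for 30D minus 30U, and 67.1%, 94.9% and 100% for 180D minus 180U. More genes passed on the real arrays, which makes the adjusted threshold less strict there, so these shares do not carry over. The labels pair each D with the U subline of its parental population (for KYSE180, 180D replicate 2 with 180U replicate 1 and the reverse); deviations of paired arrays from their group means correlated at 0.02 in KYSE180 and -0.02 in KYSE30. Members, lists (263 symbols) and tests were chosen with earlier results of these data known. Named are all members, 10 related genes (MDM4, TP73, ATF4, DDIT3, ATF3, FOXO1, FOXO3, CDKN1B, CDKN2A and RET), from each list up to 3 genes a direction by smallest p within a line and up to 2 in the other comparisons, and the 5 genes closest to 3 members by Pearson r; where a list had few changes, further ones are named after their values were seen. Alternatives covered filters, scaling, probe set choice, array weights, the block and leaving out each array. Promoter windows come from RefSeq (GRCh38.p14).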

Additional observations from a re-analysis of the deposited data

Results flagged for a closer look

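For 7 members the change in KYSE180 differed from that in KYSE30 by the limma test of the difference itself, as the change in KYSE180 minus that in KYSE30 on the log2 scale, where 12.2% of all genes passed. The genes were chosen on the 30D and 30U arrays that this contrast holds, so the 7 are no independent evidence. The differences were 2.23 for GDF15, 1.09 for TP53INP1, 0.87 for CDKN1A, 0.78 for SESN1, 0.43 for MDM2, 0.80 for SESN3 and -0.42 for TP53I3. The GDF15 level in 180U and the SESN3 level in 30D lay below the filter value, and the SESN3 difference was -0.12 with that level raised to the filter value. The TP53I3 and MDM2 differences were lost without single arrays. For the mean of its probe sets the MDM2 difference was 0.07 and did not pass (limma adjusted p = 0.806). Why the lines differed was not tested.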

How the results depend on the processing

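Each member was refitted in 4 comparisons under up to 16 alternatives. Of 496 refitted values 468 stayed on their side of the threshold, 25 dropped out, 3 came in, and none that passed changed sign. GDF15, CDKN1A, SESN1 and TP53INP1 kept their calls, or lack of one, in every comparison and alternative run, but not their size. With the mean of its probe sets, GDF15 changed by 0.47 in KYSE180 and -0.85 in KYSE30, with a difference of 1.32 and -2.11 between the lines, against 0.71, -1.52, 2.23 and -3.97 with the brightest set. TP53INP1 then changed by -0.49 in KYSE30, with a difference of 0.58 and -0.67 between the lines, against -0.96, 1.09 and -1.29. The number of members passing in 180D minus 180U was 2, but 1 (GDF15) with no filter on dim probe sets, with the arrays of the compared line only, with the mean of the gene's probe sets and with array weights. Without 1 array at a time it ranged from 1 to 2, and the number ranged from 6 to 7 in 30D minus 30U, from 5 to 7 for the difference between the changes and stayed at 8 for KYSE180 minus KYSE30. With the parental population as replicate block, 2, 7, 6 and 8 members passed in 180D minus 180U, 30D minus 30U, the difference between the changes and KYSE180 minus KYSE30; besides TP53I3 in the difference, the block changed no call of a member. SESN3 in 180D minus 180U was weakest, with 9 of 16 alternatives above the threshold (limma adjusted p up to 0.237). Its difference between the changes was lost for the mean of its probe sets (limma adjusted p = 0.286), and so was that of MDM2 (0.806). SESN2 in 30D minus 30U passed for the mean of its probe sets (0.0461), and its difference passed with an intensity trend (0.0435) and that mean (0.0432). The cause of these shifts was not tested.

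Counts over all genes moved more than the members. In 180D minus 180U, 532 genes passed, but 311 with no filter, 230 with the block, 195 with the compared line only, 219 with array weights, 1069 with an intensity trend and 209 to 502 without 1 array. In 30D minus 30U, 2346 passed, but 3896 with array weights and 902, 834, 902 and 873 without 30U replicate 1, 30U replicate 2, 30D replicate 1 and 30D replicate 2. The difference between the changes held 1723, but 1142 with no filter, 1011 with the block, 2700 with a trend and 727 to 1702 without 1 array. After centring each array on the median, the split of higher and lower calls was 269 and 236 in KYSE180 (361 and 171 before) and 1066 and 1311 in KYSE30 (1194 and 1152 before). Counts of the pathway lists under these settings were added after seeing the data. In the simulated data, with 2 arrays a group, changes of 0.5 on the log2 scale were often missed, though fewer genes changed there than passed here.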
